A study of Mus musculus with 32 samples.

Results

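The 32 tumor libraries described here are all of the 32 RNA-seq libraries of the series, placed in order by how much albumin (Alb) mRNA each held relative to the mean of its own treatment group. The order was chosen by Alb itself, from the same counts, so the Alb values and everything that moves with them are given as a description, with no test. BNL-MEA, a mouse liver cancer cell line, was injected beneath the capsule of the left liver lobe of BALB/c mice, so all groups shared the cell line, the host and the site, and the labels name the tissue as hepatocellular carcinoma. The libraries came from 3 experiments, each of which is also a batch in the labels. In the dose experiment mice received vehicle (n = 4), regorafenib at 5 mg/kg/day (rego 5, n = 3) or regorafenib at 20 mg/kg/day (rego 20, n = 3). Regorafenib blocks several receptor tyrosine kinases and is taken by mouth. In the DC-101 experiment they received vehicle (n = 4), rego 5 (n = 3) or 800 ug of DC-101 (n = 3), an antibody against the mouse VEGF receptor VEGFR2. In the anti-PD1 experiment they received vehicle, rego 5, an antibody against the checkpoint receptor PD-1 (anti-PD1), or rego 5 with anti-PD1 (n = 3 each). In the anti-PD1 experiment the study's text describes the sequenced samples of a group as separate tumors. For the other experiments the labels do not say whether the libraries of a group came from separate mice, and no treatment is compared with another here.

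Albumin is the main protein of blood plasma and is made almost entirely by hepatocytes, the parenchymal cells of the liver. Hepatocytes also secrete the carrier proteins, clotting factors, complement proteins and lipoproteins of plasma, and they carry the enzymes of drug clearance, the urea cycle and glucose production. They sit on sinusoids lined by a specialised endothelium, with Kupffer cells (the resident macrophages) in the lumen and stellate cells (vitamin A-storing pericytes) beneath. In bulk tissue fewer cells of a type and less RNA per cell cannot be told apart, and neither can hepatocytes and tumor cells as the source of a hepatocyte mRNA.

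The upstream sequences of 4 genes are shown because the set of genes that followed Alb is described by its promoter motifs in the next paragraph, and HNF1 and HNF4 are transcription factors that drive many hepatocyte genes. They are Alb, whose level set the order; Ahsg, the carrier fetuin-A; Gc, the vitamin D carrier; and Fgb, the fibrinogen beta chain. Each is the 250 bases before the RefSeq start (GRCm38.p6), 5′ to 3′ on the strand of the gene, and none of the 4 windows overlapped an exon of Gencode M21. The Ahsg window lay within 3 annotated transcripts, outside their exons, and the other windows lay within 0. Capitals mark the HNF1 core motif GTTAAT on either strand. The Alb window was chr5:90460620-90460869 (plus strand), Ahsg chr16:22891765-22892014 (plus), Gc chr5:89457899-89458148 (minus) and Fgb chr3:83049864-83050113 (minus).
Alb: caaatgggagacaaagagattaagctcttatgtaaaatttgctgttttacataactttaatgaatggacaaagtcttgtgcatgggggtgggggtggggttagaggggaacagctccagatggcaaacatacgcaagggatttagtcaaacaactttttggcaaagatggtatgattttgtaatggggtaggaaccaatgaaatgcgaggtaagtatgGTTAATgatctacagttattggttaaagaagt
Ahsg: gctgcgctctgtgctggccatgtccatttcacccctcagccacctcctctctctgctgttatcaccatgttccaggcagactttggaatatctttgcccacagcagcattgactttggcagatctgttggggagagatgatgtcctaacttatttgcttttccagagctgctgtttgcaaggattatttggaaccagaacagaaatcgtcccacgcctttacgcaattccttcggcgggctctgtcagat
Gc: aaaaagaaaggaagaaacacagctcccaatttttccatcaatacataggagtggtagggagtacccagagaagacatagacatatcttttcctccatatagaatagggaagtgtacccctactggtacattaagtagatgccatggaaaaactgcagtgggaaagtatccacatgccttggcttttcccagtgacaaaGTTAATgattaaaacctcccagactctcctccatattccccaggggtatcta
Fgb: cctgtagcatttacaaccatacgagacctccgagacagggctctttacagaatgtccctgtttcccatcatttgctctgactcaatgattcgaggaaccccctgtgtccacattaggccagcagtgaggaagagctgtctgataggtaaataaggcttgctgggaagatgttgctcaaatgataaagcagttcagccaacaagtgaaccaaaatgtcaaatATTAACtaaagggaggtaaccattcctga
The HNF1 core motif lay 32 to 27 bases before the start of Alb, 52 to 47 before Gc and, on the other strand, 29 to 24 before Fgb. The Ahsg window held none of the 4 motifs searched.

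The motifs were searched on both strands in windows of 300 bases, from 250 before to 50 after each RefSeq start, and none of the 4 contains another. Of the 773 genes that followed Alb (defined below), 566 had a window, 757 windows in all. The HNF1 core motif GTTAAT was in 14.1% of these windows, in 4.96% of the windows of all genes kept, and in 7.10% of the 32851 windows of the reference. The HNF4 site CAAAGTCCA was in 2.51%, 0.491% and 0.475% of the same 3 sets. The TATA box TATAAA was in 18.5%, 8.34% and 13.6%. The C/EBP site TTGCGCAA was rare in each, at 0.132%, 0.307% and 0.183%. The first 3 motifs were thus more frequent in windows of genes that followed Alb than in the other windows, and a match describes letters, not binding.

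Alb ranged from 11.4 counts per 1e6 counts of the library (CPM; 245 counts, exact 95% binomial interval 9.98 to 12.9 CPM) in the fourth vehicle library of the DC-101 experiment to 18928 CPM (493757 counts, interval 18876 to 18980) in rego 20 replicate 1 of the dose experiment. These intervals cover counting error only. After the group mean was subtracted on the log2 CPM scale, 18 libraries lay above 0 and 14 below. The libraries nearest the boundary were vehicle replicate 1 of the anti-PD1 experiment at 0.03 above and rego 20 replicate 2 at -0.005 below. Libraries above 0 held 336 to 18928 CPM of Alb (median 2975) and those below held 11.4 to 7173 (median 871), so the raw levels of the sets overlapped although the centred values, by construction, did not.

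In the dose experiment the 4 vehicle libraries held 677, 1602, 1446 and 2275 CPM of Alb in replicate order. The rego 5 libraries held 1343, 1066 and 10450 CPM. The rego 20 libraries held 18928, 7173 and 1840 CPM. A single library stood above its group in each treated arm of this experiment, while the vehicle group was tighter, with an SD of 0.71 on the log2 scale against 1.86 for rego 5 and 2.01 for rego 20.

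The DC-101 experiment held the widest spread. Its vehicle libraries held 13.6, 336, 2626 and 11.4 CPM of Alb. Rego 5 libraries held 3325, 546 and 7288 CPM. DC-101 libraries held 23.8, 11911 and 9004 CPM. The DC-101 group spanned 501-fold and the vehicle group 231-fold, with SDs of 5.09 and 3.82 on the log2 scale. This experiment alone carried 80.9% of the summed squares of centred Alb, against 12.97% for the dose experiment and 6.14% for the anti-PD1 experiment, so a correlation over all 32 libraries leans on these 10 libraries. The lowest centred value was -5.87 (DC-101 replicate 1) and the highest 4.62 (vehicle replicate 3).

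In the anti-PD1 experiment the vehicle libraries held 6128, 4981 and 6206 CPM of Alb, the tightest group of the series (1.25-fold from lowest to highest, SD 0.08). Rego 5 libraries held 1492, 1819 and 403 CPM. Anti-PD1 libraries held 279, 695 and 1410 CPM. The combination held 5313, 1703 and 1962 CPM. No library of this experiment came as low as the 3 libraries under 24 CPM in the DC-101 experiment.

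**Figure D1:**
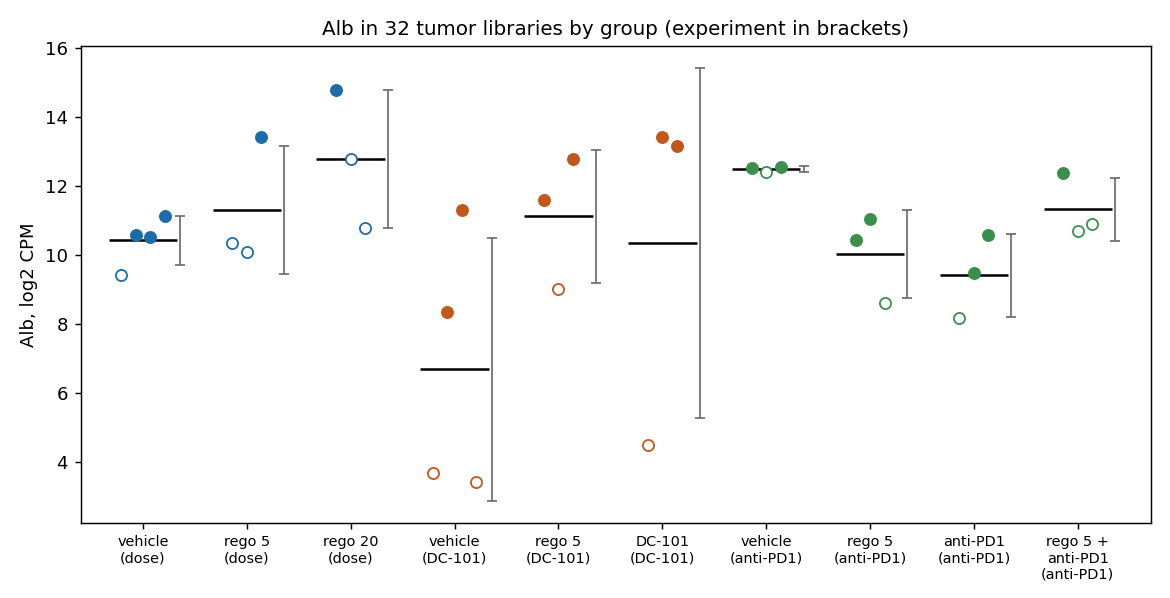
Alb in log2 CPM for each of the 32 libraries, by treatment group and experiment; filled points lie above and open points below their group mean (black line), and grey bars show the mean ± SD. The vehicle and DC-101 groups of the DC-101 experiment each hold libraries under 5 and libraries above 11, while the anti-PD1 vehicle libraries sit within 0.15 of each other.

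The other hepatocyte markers moved with Alb. The mean log2 CPM of 11 hepatocyte markers other than Alb (among them Apoa1, Ttr, Fgb, Cyp2e1, Cps1 and Hnf4a) ran from -0.63 to 12.1 over the libraries, with Pearson r = 0.96 and Spearman rho = 0.96 to centred Alb over 32 values that sum to 0 within each group. Within experiments the r was 0.98 (dose), 0.98 (DC-101) and 0.86 (anti-PD1), and 0.92 without the 2 libraries farthest from the median. The score changed by 0.93 ± 0.06 (slope ± SE, 21 residual degrees of freedom) per log2 unit of Alb. It averaged 1.30 ± 1.26 (SD, n = 18) above 0 and -1.67 ± 1.30 (SD, n = 14) below. All 11 markers had r of at least 0.7, from 0.86 (Cps1) to 0.97 (Apoa1).

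As a share of the library, the 212 genes of the hepatic lists plus Alb took 0.664% of counts (exact 95% interval 0.661 to 0.668) in a vehicle library (replicate 1) of the DC-101 experiment. In rego 20 replicate 1 they took 24.5% (24.5 to 24.5). The centred log2 share had r = 0.84 with Alb over 32 libraries (0.98 for dose, 0.89 for DC-101 and 0.65 for anti-PD1 libraries). It did not fall in proportion to Alb: its slope was 0.38 ± 0.05 per log2 unit. In the library with the least Alb, Apoe alone supplied 57.9% of the hepatic-list counts, followed by the metallothioneins Mt2 (8.25%) and Mt1 (4.26%) and by complement C3 (3.32%). In the library with the most Alb, Apoe supplied 7.63%, beside Alb at 7.73%, Apoa1 at 3.50% and Serpina3k at 3.44%.

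The total count of a library, 16.8 to 27.7 times 1e6, had r = -0.09 with centred Alb. The TMM scaling factor (0.668 to 1.09) had r = -0.33 (-0.66 for dose, -0.44 for DC-101 and -0.43 for anti-PD1 libraries), and the lowest factor belonged to rego 20 replicate 1. The share of counts in the 10 most counted genes (4.46% to 11.9%) had r = 0.39 (0.73, 0.66 and 0.23). The mitochondrial share of counts (0.260% to 5.37%) had r = 0.78 in the dose experiment but -0.01 in the DC-101 and -0.11 in the anti-PD1 experiment, and its highest value was again rego 20 replicate 1. Without that library 774 genes followed Alb over all experiments together, a count that does not describe r within the dose experiment. The part of these measures in the results was not tested.

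Each of 17995 genes other than Alb was then correlated with centred Alb, to separate genes that moved with Alb from those that did not. A gene was called as following at r of at least 0.7 and as opposed at r of at most -0.7. Following genes numbered 773, or 4.3% of all genes, and 229 of them reached 0.9. The opposed side held 1 gene, 0.00556% of all. The median r over all genes was -0.05, so most genes lay far below the threshold. Following genes changed by a median of 0.60 log2 units per log2 unit of Alb (0.21 to 1.04). A positive slope in all 10 groups was found for 465 of them and for 590 of all 17995 genes, those 465 included. The call at 0.7 used the same groups. Of the 773, 728 were protein coding, 14 lincRNA and 12 antisense, and for antisense genes the reads cannot be told from those of the partner gene because the strand setting is not given in the sources used here. The hepatic lists held 173 of the 773, and 574 were in no list.

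**Figure D2:**
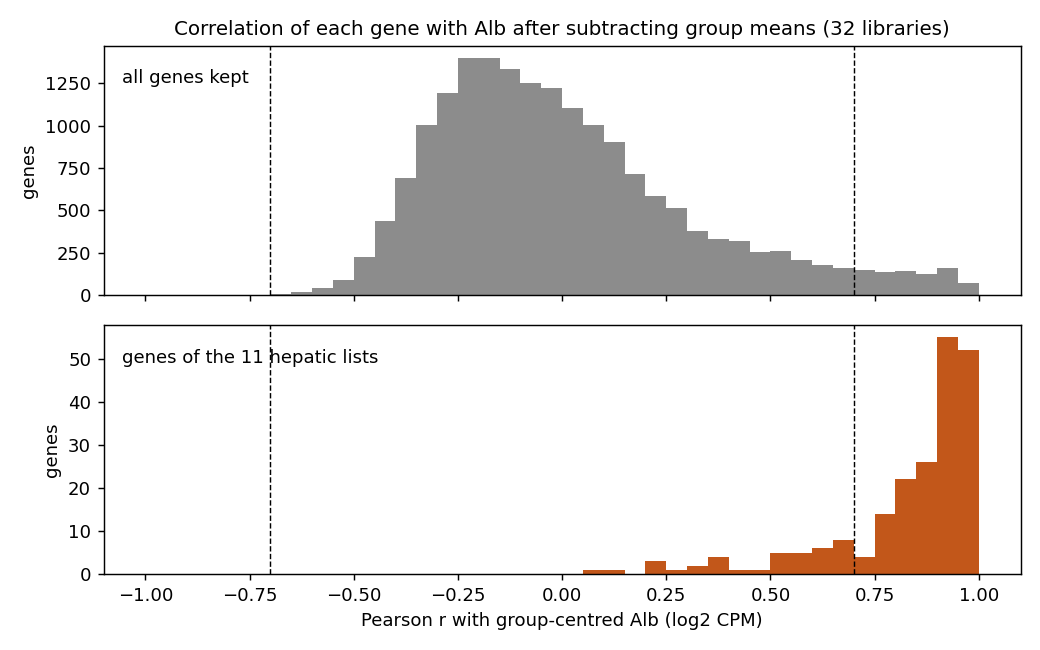
Number of genes by Pearson r with group-centred Alb over 32 libraries, for all genes kept (top, 17995 genes) and for the genes of the 11 hepatic lists (bottom, 211 genes); dashed lines mark 0.7 and -0.7. All genes centre just below 0 with a tail of 773 genes past 0.7, where 173 of the hepatic genes lie.

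Of 212 genes in the 11 hepatic lists, 211 passed the filter on low counts, 173 followed Alb, 0 were opposed, and 6 had r under 0.3. Their median r was 0.90 and median slope 0.78, against a median r of -0.05 over all genes, although the lists were chosen with earlier results of these data known. Medians of the 11 lists ran from 0.93 to 0.98 in the dose, 0.89 to 0.98 in the DC-101 and 0.38 to 0.82 in the anti-PD1 experiment. The next paragraphs give them by role.

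Among secreted carriers and protease inhibitors most genes followed, with 20 of 21 past 0.7 and a median r of 0.96. Ahsg ranged over 2.18 to 1957 CPM (median 258) below 0 and 113 to 7166 CPM (median 1122) above, with r = 0.98 and a slope of 0.99 ± 0.04, so it changed as much as Alb did. Hpx, hemopexin, which binds free heme, held 2.27 to 1443 CPM (median 270) below and 134 to 3430 CPM (median 1316) above (r = 0.97). Rbp4, the retinol carrier, and Gc had r of 0.98 and 0.97. The exception was Serpina6, the corticosteroid carrier, at r = 0.68 (0.92 in the dose, 0.77 in the DC-101 and 0.35 in the anti-PD1 experiment).

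Coagulation and fibrinolysis genes did the same, with 19 of 20 following and a median r of 0.96. Kng1, kininogen, had r = 0.98 and a slope of 0.99 ± 0.04, and F2, prothrombin, had r = 0.98 and 0.97 ± 0.04. Fgb held 2.36 to 2299 CPM (median 351) below 0 and 160 to 6966 CPM (median 1255) above. Plg, plasminogen, changed by 1.01 ± 0.05 per log2 unit of Alb, and Serpinc1, antithrombin, by 0.95 ± 0.05. Pros1, protein S, was the exception with r = 0.09, at 46.6 to 108 CPM below and 51.0 to 97.5 CPM above. Within experiments its r was 0.79 (dose), -0.18 (DC-101) and -0.64 (anti-PD1).

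Of 17 apolipoprotein and lipoprotein genes kept (18 listed), 15 followed, with a median r of 0.91. Apoa1, the main protein of high density lipoprotein, held 1.16 to 1901 CPM (median 192) below 0 and 44.1 to 8574 CPM (median 979) above, with r = 0.97. Its slope of 1.04 ± 0.05 was the steepest among the 773 following genes. Apoc3 (r = 0.98) and Apob (r = 0.97), both parts of triglyceride-rich particles, also followed. Apoe, which macrophages also make, held 2800 to 10439 CPM (median 5970) below and 1581 to 18695 CPM (median 4608) above, with r = 0.36 over all libraries and -0.15 in the anti-PD1 experiment.

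Complement genes split. Of 18, 15 followed Alb, with a median r of 0.85. Cfi (complement factor I, r = 0.98, slope 0.87 ± 0.04), C4bp (r = 0.97) and Hc (component C5, r = 0.97) moved as the carriers did. C3, the central component, followed with r = 0.76 but a slope of 0.31 ± 0.06, held 270 to 7038 CPM (median 764) below 0 and 301 to 7423 CPM (median 1622) above, and had r = 0.17 in the anti-PD1 experiment. Cfb (r = 0.67), C2 (r = 0.69) and Masp1 (r = 0.56) were the 3 that did not follow.

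Among acute phase genes, which the liver makes in inflammation, 12 of 19 followed and the median r was 0.80, with 0.93 (dose), 0.93 (DC-101) and 0.38 (anti-PD1) within experiments. Crp had r = 0.97 and Hp, haptoglobin, r = 0.94. Saa1 and Saa2 had r of 0.58 and 0.40, and these near-identical copies are uncertain because only uniquely mapped reads were counted. Saa3, which is made largely outside hepatocytes, had r = 0.14. Saa3 held 4.34 to 447 CPM (median 23.7) below 0 and 3.67 to 761 CPM (median 28.5) above. Hamp, the iron hormone hepcidin, had a slope of 0.81 but r = 0.63. The metallothioneins Mt1 (r = 0.51) and Mt2 (r = 0.34), which most cells make, were also under 0.7.

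Of 24 cytochrome P450 genes, 19 followed Alb, with a median r of 0.81. Cyp2d26 had r = 0.96 and a slope of 0.90 ± 0.06. Cyp2e1, which oxidises ethanol and acetaminophen, held 0.575 to 2675 CPM (median 99.0) below 0 and 2.90 to 8173 CPM (median 223) above (r = 0.88). In DC-101 replicate 2, with 11911 CPM of Alb, Cyp2e1 stood at 94.3 CPM, while in rego 5 replicate 3 of the dose experiment, with 10450 CPM of Alb, it stood at 1244 CPM. These libraries also differ in treatment and experiment. Cyp2a5 (r = 0.55) was lowest, and copies of the Cyp2 family are uncertain for the reason given for Saa1 and Saa2. In conjugation and detoxification 14 of 17 followed (median r = 0.86), led by Ugt2b34 (r = 0.96), a glucuronosyltransferase. Gstm1, a glutathione transferase, was at 0.70 and Ephx1, the microsomal epoxide hydrolase, at 0.47.

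Metabolic enzymes followed in part. Uox, urate oxidase of hepatocyte peroxisomes, had the highest r of all 17995 genes, 0.99 (slope 0.93 ± 0.03; r of 0.99, 0.99 and 0.98 within dose, DC-101 and anti-PD1 libraries), at 0.221 to 364 CPM (median 22.4) below 0 and 9.18 to 1132 CPM (median 81.1) above. It was among 14 of 18 genes of glucose, ketone and fatty acid metabolism that followed (median r = 0.86), where Cpt1a, which admits fatty acids to mitochondria in many tissues, had r = 0.20. Of 26 genes of the urea cycle and amino acid catabolism, 18 followed (median r = 0.83). Cps1, the first enzyme of the urea cycle, had r = 0.86 and a slope of 1.004 ± 0.13. Ass1 (r = 0.52) and Asl (r = 0.64), enzymes of later steps of the cycle, did not follow.

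All 14 bile acid and solute transporters followed (median r = 0.92), with Slc2a2, the hepatocyte glucose transporter, at r = 0.97 and Slc27a2, a fatty acid importer of hepatocytes, at 0.95. Slco1a1, an organic anion carrier, was lowest at 0.76. Of 17 hepatic transcription factors, 13 followed (median r = 0.88). Hnf4a, the nuclear receptor that maintains the hepatocyte program, held 0.0884 to 176 CPM (median 14.4) below 0 and 4.90 to 548 CPM (median 39.9) above (r = 0.96). Rxra (r = 0.45), Cebpa (r = 0.38) and Cebpb (r = 0.24), which many cells use, and Onecut1 (r = 0.70, just under the threshold) did not.

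Zonation genes followed in part. Hepatocytes near the portal vein and near the central vein carry different enzymes. Of 10 genes in each list, 5 pericentral and 3 periportal genes followed Alb (median r = 0.71 and 0.57). The share over all genes was 4.3%, and the difference between the lists was not tested. Gulo, of vitamin C synthesis, Cyp2e1, Cyp1a2, Cyp2c37 and Rgn followed on the pericentral side, and Hsd17b13, Pck1 and Cps1 on the periportal side. Glul (r = 0.30) and Axin2 (r = 0.22), targets of Wnt signalling, and Hal (r = 0.30) did not.

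The libraries at the ends of the Alb range show how much of each gene was left where Alb was lowest. The 3 libraries with the least Alb all came from the DC-101 experiment, being vehicle replicates 4 and 1 and DC-101 replicate 1 (11.4 to 23.8 CPM), and the 3 with the most were rego 20 replicate 1, rego 5 replicate 3 of the dose experiment and DC-101 replicate 2 (10450 to 18928 CPM). Their mean CPM of Alb stood in the ratio 0.118%. Of the 173 hepatic genes that followed, 146 kept under 1% in the same comparison, 24 kept 1% to 10%, and 3 kept more, with a median of 0.155%. Of all 773 following genes 468 kept under 1% (median 0.459%), and both sets were called with these 6 libraries included. The hepatic median was 0.338% without rego 20 replicate 1 and 0.0832% without DC-101 replicate 1. The number of these hepatic genes that kept at least 10% ran from 0 (without DC-101 replicate 2) to 10 (without rego 20 replicate 1). C3 (10.7%) and Serpina3n (10.3%) were among the 3. Of the 38 hepatic genes that did not follow, 8 kept under 1%, 7 kept 1% to 10% and 23 kept at least 10%. The median of the 38 was 18.5%, and 28.7% without rego 20 replicate 1. Among the 23 were Apoe at 34.1%, Glul at 49.8%, Cpt1a at 94.8%, Pros1 at 100.3% and Mt2 at 130%. Those under 1% included Hamp at 0.068% and Serpina6 at 0.124%. Saa3 stood at 29.7, 143 and 6.84 CPM in the 3 libraries with the least Alb and at 12.2, 6.25 and 48.5 CPM in the 3 with the most, so the sets overlapped. The ratio of its means, 268%, rested on vehicle replicate 1 and was 81.9% without it, while it was 649% without DC-101 replicate 2 and 387% without DC-101 replicate 1. Each of the 6 libraries was left out in turn after the data were seen. Mt2 went to 98.1% without vehicle replicate 4, and without rego 20 replicate 1 Glul went to 90.9% and Apoe to 52.7%. These libraries also differ in treatment and experiment.

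**Figure D3:**
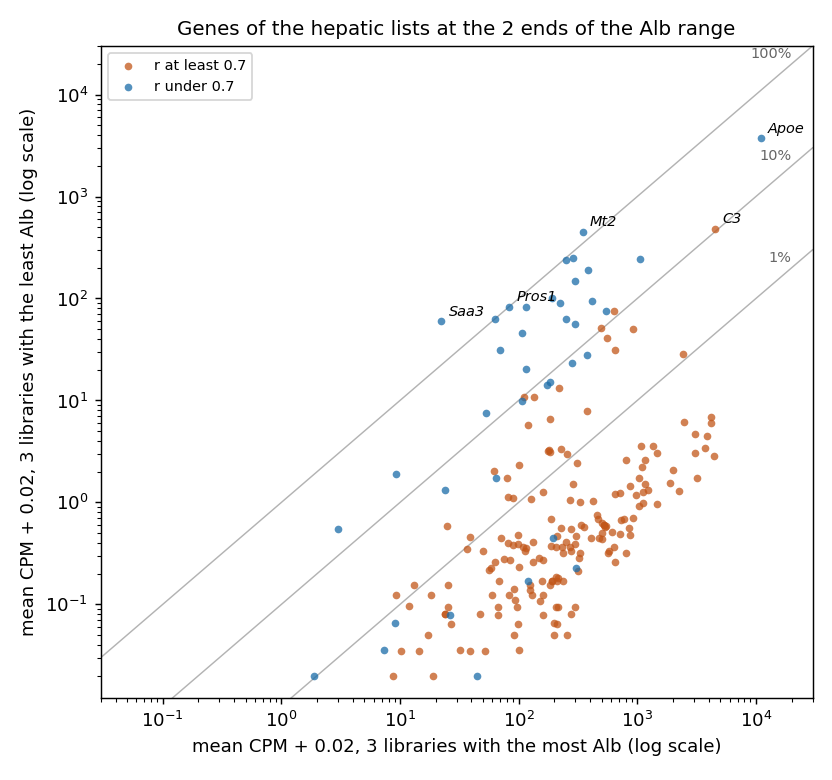
Mean CPM plus 0.02 of 211 hepatic-list genes in the 3 libraries with the most Alb (horizontal axis, log scale) and the 3 with the least (vertical axis, log scale), in orange at r of at least 0.7 and in blue below; grey lines mark 100%, 10% and 1%. Most following genes lie under the 1% line, while Apoe, Pros1, Mt2 and Saa3 lie well above the 10% line and C3 on it.

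Outside the lists, 574 genes followed Alb. Those with the highest r among the 20 named genes were 1300017J02Rik (r = 0.98) and Gm4788 (r = 0.97). The 20 genes with the highest r whose mean log2 CPM reached 2 had slopes of 0.87 to 1.04 and also included Azgp1, Serpinf2, Itih2, C4bp and Apob. Much of the following set had few counts: 391 of 773 had a mean log2 CPM under 2, and 194 had at most 3 counts in all over the 3 libraries with the least Alb. For such genes the prior count of 2 pulls low values together and the slope understates the change.

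Markers of the non-parenchymal liver cells followed in part. Of 7 Kupffer cell markers 4 followed Alb, with a median r of 0.71 (0.96 for dose, 0.75 for DC-101 and 0.63 for anti-PD1 libraries). Clec4f, a lectin found on Kupffer cells, held 0.0442 to 15.9 CPM (median 3.22) below 0 and 0.0392 to 76.4 CPM (median 20.1) above. Its r was 0.89 (0.97 for dose, 0.90 for DC-101 and 0.89 for anti-PD1 libraries), its slope 0.92 ± 0.10, and it was positive in all 10 groups. The iron exporter Slc40a1 (r = 0.84), Cd5l (r = 0.75) and Timd4 (r = 0.71) also followed, Vsig4 (r = 0.68) fell just short, and Marco had r = 0.45. Folr2, which other tissue macrophages carry as well, had r = -0.11 and was present at 16.6, 31.3 and 51.2 CPM in the 3 libraries with the least Alb. Of the general macrophage markers 0 of 14 passed 0.7, a count near the 4.3% of all genes that did, and their median r was -0.18 (for example Adgre1 at -0.17 and Csf1r at -0.31).

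Of 12 markers of liver sinusoidal endothelium 8 followed, with a median r of 0.79 (0.94 for dose, 0.87 for DC-101 and 0.57 for anti-PD1 libraries). Stab2, a scavenger receptor for hyaluronan, held 0.278 to 22.4 CPM (median 3.07) below 0 and 0.802 to 46.7 CPM (median 16.2) above, with r = 0.91 and a slope of 0.73 ± 0.07. Rspo3 (r = 0.89), Gpr182 (r = 0.87) and Clec4g (r = 0.85) were next. Stab1 and Fcgr2b, which macrophages also express, had r of -0.55 and -0.39, and Stab1 held 138 to 715 CPM (median 340) below 0 and 44.7 to 574 CPM (median 273) above. In the pan-endothelial list 0 of 17 followed, again near the 4.3% of all genes, with a median r of 0.11, and its difference from the sinusoidal list was not tested. Pecam1 held 22.7 to 160 CPM (median 35.2) below and 15 to 82.8 CPM (median 35.6) above (r = -0.02), and Kdr, which encodes the DC-101 target VEGFR2, had r = 0.35.

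Stellate cell markers split, with 6 of 14 that followed beside 4.3% of all genes. The list median was 0.58, with medians of 0.90 (dose), 0.71 (DC-101) and 0.29 (anti-PD1) within experiments. Reln (r = 0.93), Colec10 (r = 0.92), Colec11 (r = 0.87), Lrat (r = 0.84), Pth1r (r = 0.77) and Angptl6 (r = 0.73) followed, and Lrat forms the retinyl esters that quiescent stellate cells store. Hgf (r = 0.00), Ecm1 (r = 0.06), Des (r = 0.05) and Lhx2 (r = -0.04) did not. Reln was at 0, 0.133 and 0.222 CPM in the 3 libraries with the least Alb, while Ecm1 was at 290, 686 and 321 CPM there. Of 7 cholangiocyte markers 1 followed, beside 4.3% of all genes, and the difference was not tested. The ducts' keratin Krt19 had r = 0.33 and Epcam r = 0.50, each positive in the DC-101 experiment (0.64 and 0.88) and negative in the anti-PD1 experiment (-0.43 and -0.70).

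**Figure D4:**
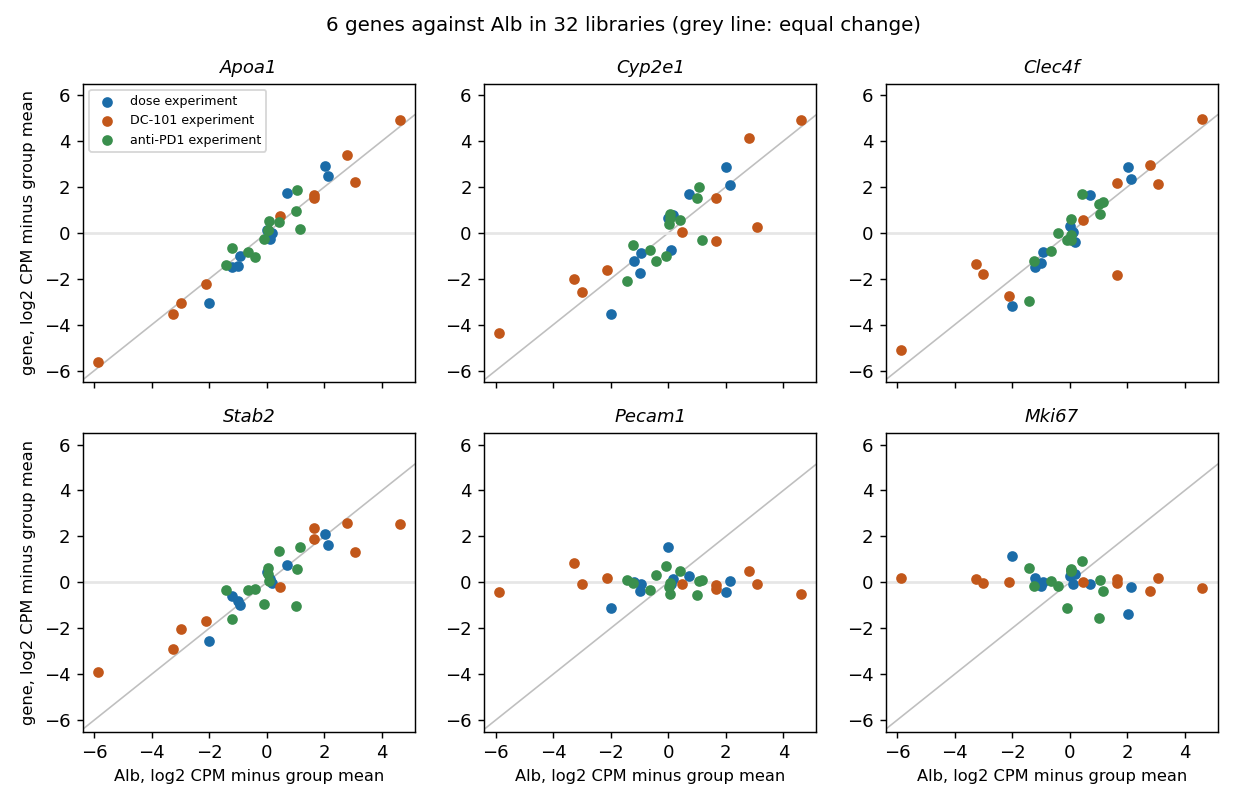
Group-centred log2 CPM of 6 genes against group-centred Alb, a point for each of 32 libraries coloured by experiment; the grey line marks an equal change. Apoa1 lies along the line, Cyp2e1, Clec4f and Stab2 rise with Alb with more scatter, and Pecam1 and Mki67 scatter between -1.57 and 1.53 with r of -0.02 and -0.30.

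The proliferation and fetal liver lists held counts near the 4.3% of all genes that followed. Of 21 proliferation genes 0 followed (median r = -0.29), and the highest r was -0.16 (Tyms). The median differed between experiments, at -0.78 (dose), -0.29 (DC-101) and 0.10 (anti-PD1). Mki67 held 69.9 to 445 CPM (median 380) below 0 and 41.6 to 626 CPM (median 316) above, and Mcm7 had the lowest r, -0.42, which was -0.83 for dose, -0.46 for DC-101 and 0.54 for anti-PD1 libraries. Of 15 mesenchymal and cytoskeletal genes 2 followed, the simple epithelial keratins Krt18 (r = 0.89) and Krt8 (r = 0.79), and the other 13 had r between -0.30 and -0.12. Medians of this list were -0.76 (dose), -0.06 (DC-101) and 0.17 (anti-PD1). In the 3 libraries with the least Alb, Krt18 stood at 4.95 CPM or less and the mesenchymal filament Vim at 5661, 7101 and 4843 CPM. The defining fetal liver gene Afp was low in all 32 libraries, at 0.0472 to 3.65 CPM. Fetal and progenitor genes had a median r of 0.04 with 0 of 11 following, from Afp at 0.44 to Hmga2 at -0.49 and Lin28b at -0.47.

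Immune and other lists also held counts near that 4.3% of all genes, which are no result about these lists. Over all libraries the median r was 0.08 for T and NK cell markers (0 of 17 following), 0.12 for B and plasma cells (0 of 9), 0.21 for neutrophils (0 of 9), 0.15 for erythrocytes (0 of 7), 0.12 for interferon response (0 of 18), 0.06 for hypoxia and glycolysis (0 of 17), -0.18 for fibroblasts and matrix (0 of 15), 0.23 for mesothelium (0 of 6), -0.22 for skeletal muscle (0 of 3 kept) and -0.06 for reference genes (0 of 11). Adipocyte markers had a median of 0.64 (0 of 3 kept), and 0 of 6 pancreatic acinar markers were kept. Medians within the dose, then DC-101, then anti-PD1 libraries were 0.64, 0.15 and -0.16 for interferon response and 0.65, -0.07 and 0.78 for erythrocytes. They were -0.64, -0.06 and 0.12 for reference genes. They were -0.56, -0.05 and -0.35 for fibroblasts and matrix and -0.54, 0.24 and 0.14 for hypoxia and glycolysis. Among single members, the neutrophil granule genes Camp, Ngp and Ltf had r of 0.65, 0.61 and 0.60, and Lum, a matrix proteoglycan, and Tagln, a smooth muscle protein, had r of 0.59 and 0.57. Of the gene sets taken from the study, 6 of 15 kept in its IL-6 signature followed (Serpina3k 0.96, Serpina3m, Serpina3c, Serpina3n, Lcn2 and C3), 1 of 44 in the M1-over-M2 set (Hp 0.94) and 1 of 28 in the M2-over-M1 set (P2ry1 0.76). The last 2 counts are close to the share over all genes.

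**Figure D5:**
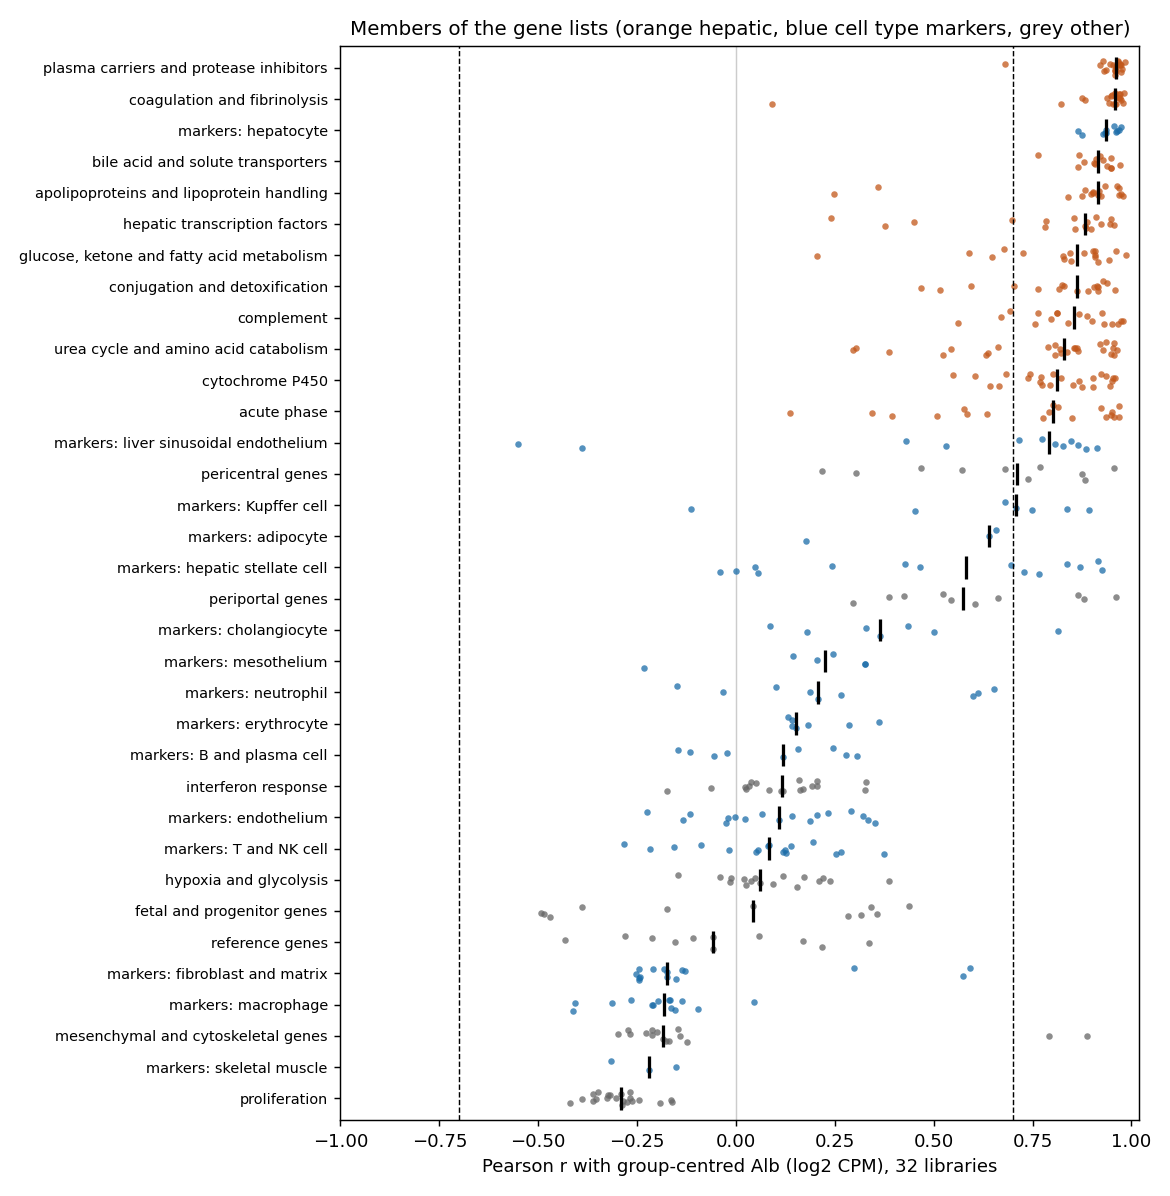
Pearson r with group-centred Alb for each member of 34 gene lists, 1 point a gene, with the median as a black bar; orange marks hepatic lists, blue cell type markers and grey other lists, and dashed lines mark 0.7 and -0.7. The 11 hepatic lists and the hepatocyte markers have medians of at least 0.80, the Kupffer, sinusoidal and stellate lists are spread from below 0 to above 0.88, and the proliferation list lies wholly below 0.

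The opposed side was thin. The lowest r, -0.71, belonged to the lincRNA 4632415L05Rik, at 18.4 to 35.8 CPM (median 28) below 0 and 10.8 to 34.5 CPM (median 23.6) above, and its slope was -0.06 ± 0.01. Its r rose to -0.59 under another scaling. Next were Virma (r = -0.69), a subunit of the RNA m6A methyltransferase complex, Ccnj (r = -0.67), Sin3a (r = -0.67), a corepressor scaffold, and Sgpl1 (r = -0.66), sphingosine phosphate lyase. Ctnnb1, beta-catenin, had r = -0.62 with a positive slope in 0 of 10 groups and -0.75 without the 2 farthest libraries, at 537 to 817 CPM (median 601) below 0 and 356 to 641 CPM (median 556) above. The 20 lowest genes had slopes of -0.03 to -0.12, so none changed by more than a small part of the change in Alb. They also included Ccdc66, Pcdhb14, Elk1, Meaf6, Smad1, Morc2a, Lrp12, Cep97, Pramef8, 2410002F23Rik, Mex3b, Pfkm, Strada and Zcchc4. In all, 147 genes had r of -0.5 or lower, and all 147 were below 0 under each of the 5 scalings, with 52 at -0.5 or lower under each.

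When libraries above 0 were set against those below, the groups' ranges hardly ever separated. A single gene, Fam47e (r = 0.79), had every library above 0 higher than every library below, which is 0.00556% of the 17995 genes, and no gene was lower throughout. On the raw scale its ranges overlapped, at 0 to 3.55 CPM (median 0.161) below and 0.0785 to 15.4 CPM (median 0.755) above. This gene was named after its values were seen.

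The calls were compared across experiments, by taking genes with r of at least 0.7 in 2 experiments together and reading their r in the other. Each experiment has its own controls. Of 777 genes so called in the DC-101 and anti-PD1 experiments, 759 (97.7%) were also past 0.7 in the dose experiment, where 17% of all genes were. Of 1331 called in the dose and anti-PD1 experiments, 859 (64.5%) were past 0.7 in the DC-101 experiment, against 7.51% of all genes. Of 987 called in the dose and DC-101 experiments, 369 (37.4%) were past 0.7 in the anti-PD1 experiment, against 2.95%, and 859 had r above 0 there. The dose experiment had 3056 genes past 0.7 and 3593 past -0.7 by itself, many more than the 773 and 1 over all libraries. Of the 773, 366 were past 0.7 in each experiment and 738 were above 0 in each. The 773 were called over these same experiments together, so these last counts describe the call and are no separate check.

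The first principal component of the group-centred values took 37.6% of the variance and had r = 0.86 with centred Alb over 32 libraries; the second took 16.7% and had r = 0.04. With a single experiment the r of the first component was 0.956 (dose), 0.939 (DC-101) and 0.296 (anti-PD1), and it was 0.582 over genes with 10 counts in every library. The highest loadings on the first were Cyp8b1, Pck1, Hamp, Apoa5 and Mug1, which are hepatocyte genes and were named here for their loadings. Of the within-group squares summed over all genes, 29.1% lay along centred Alb, and 10.6% when the genes that followed it were left out.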

How the data were processed

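RNA from BNL-MEA tumor tissue (frozen per the labels, fresh per the study's methods) was sequenced in 32 libraries after stranded poly(A) library preparation. The authors trimmed adapters with cutadapt (2.4), aligned reads to GRCm38 with STAR (2.7.2a) and counted uniquely mapped reads per gene on Gencode M19, and the deposited values are raw counts for 54446 genes. STAR leaves out reads that map to several places, which lowers genes with near-identical copies. The strand setting is not given in the sources used here. Gene names came from a Gencode M21 table (54409 identifiers, 99.93%, matched).

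Genes were kept with edgeR (4.0.16, R 4.3.3) filterByExpr (minimum count 10, minimum total 15), which left 17996. Log2 CPM used TMM factors over the 32 libraries and a prior count of 2, so fold changes of low genes are understated. For each gene and for Alb, each of the 10 groups was centred on its own mean. Pearson r and the slope with its standard error (21 residual degrees of freedom) were then computed. CPM in the text are counts over the library total, with no scaling factor. No p-value is given, since the libraries were selected on Alb from the same counts. The libraries, gene lists and motifs were chosen with earlier results of these data known. Named genes were Alb, the 20 highest and 20 lowest r among genes whose mean log2 CPM reached 2, and in each list the members with the highest r, the lowest r and the highest mean; other members were named for their role or after their values were seen. The procedure was tested on simulated data with known slopes. Replicates differed by more than sampling noise in all 36 pairs (chi-square per degree of freedom at least 14.0). Promoter windows were from RefSeq (GRCm38.p6), matched by symbol. Some items are not reported here.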

Additional observations from a re-analysis of the deposited data

Results flagged for a closer look

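In the groups of 4 libraries, 84 sets of values were compared, and in 6 of them a library lay farther from its neighbours than Dixon's criterion allows; chance alone gives about 1 in 20. In vehicle replicate 4 of the DC-101 experiment, the library with the least Alb, the mean log2 CPM of the mesenchymal and cytoskeletal genes was 8.22 (the other 3 libraries, 8.70 to 8.77), that of B and plasma cell markers was -1 (others 0.254 to 0.506), and that of skeletal muscle markers was 4.85 (others -1.16 to -0.976). In vehicle replicate 2 of the same experiment the fibroblast and matrix list stood at 9.10 (others 8.60 to 8.68). In the dose experiment, T and NK cell markers stood at 0.761 in vehicle replicate 3 (others -0.0543 to 0.025), and erythrocyte markers at 4.67 in vehicle replicate 4 (others 2.66 to 2.89). The Alb level, the hepatocyte list score and the share of counts in the hepatic lists met this criterion in neither group.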

How the results depend on the processing

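Genes following Alb numbered 748 to 786 under 4 other scalings and 779 without a filter. They numbered 859 with the experiment mean subtracted, 818 with no centring, 1031 with the hepatocyte list score as the axis and 859 by Spearman. Without the 2 farthest libraries they numbered 605, of which 556 were shared with the main calls. The count was 169 when 10 counts were required in every library (12449 genes compared), 493 at a threshold of 0.8, and, rescaled within an experiment alone, 3394 (dose), 1375 (DC-101) and 531 (anti-PD1). Leaving out each library in turn gave 542 (without DC-101 replicate 1) to 880 genes. Genes opposed to Alb numbered 0 under each of the 4 scalings, 5 without a filter, 4 with the experiment mean subtracted, 2 with no centring, 5 with the hepatocyte list score as the axis, 3 by Spearman, 11 without the 2 farthest libraries, 22 and 0 at thresholds of -0.6 and -0.8, 2689 (dose), 419 (DC-101) and 171 (anti-PD1) with a single experiment, and 0 to 5 with each library left out. The replicate numbers were not treated as pairs, because 12 of 36 same-numbered pairs had a correlation over 0.1; subtracting them as a replicate block gave 836 following and 61 opposed genes.

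The r of the hepatocyte list score was 0.864 in the anti-PD1 experiment alone and 0.919 without the 2 farthest libraries, and 0.947 to 0.972 with each library left out; it has no value with itself as the axis. The r of the first principal component was 0.582 with 10 counts in every library, 0.956 in the dose and 0.296 in the anti-PD1 experiment alone, and 0.792 to 0.894 with each library left out. The hepatocyte score above 0 exceeded that below by 2.97, and by 3.97 without libraries within 0.5 of 0. The cause of these changes was not tested, beyond the fewer genes or libraries compared. Over the alternatives run for them, the 20 genes with the highest r lay between 0.733 and 0.995 (347 values; not every gene passed every filter) and the 20 lowest between -0.893 and -0.0997 (360 values). Of 1538 values for 87 other genes chosen from the lists, 232 were counted as moved and 15 as changed in sign, with a range of -0.903 to 0.991. For genes with r between -0.7 and 0.7, sign changes outside the runs with each library left out in turn were counted among the 232. Genes that changed sign with a library left out included Pros1 (to -0.12), Saa3 (to -0.11), Ecm1 (to -0.06), Lhx2 (to 0.05) and Vim (to 0.02). Genes at a few counts are limited by depth.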
